A study of Mus musculus with 8 samples.

Results

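The comparison described here is that of digoxin with its solvent DMSO in wildtype mouse CD4 T cells grown under Th17 conditions, read across all genes. Its members were chosen by array title: 4 of the study's 8 arrays, 2 of wildtype cells in digoxin and 2 of wildtype cells in DMSO. The other 4 arrays, 2 in DMSO and 2 in digoxin, came from RORγt-deficient cells. They show where the wildtype response differed and how large the effect of receptor loss was. They also enter the estimate of spread behind the standard errors and p-values of the wildtype comparison, since all 8 arrays were fitted together. Cells of all groups were naive CD4 T cells of strain C57BL/6, sorted by flow cytometry, stimulated with antibodies to CD3 and CD28, and profiled as Th17 cultures of 48 h. The dose of digoxin and the allele behind the RORγt deficiency are not given in the labels. The titles call the arrays biological replicates, but no label states that they stem from separate animals or cultures. The p-values therefore measure only the spread among these arrays, which may be technical.

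Th17 cells are T helper cells that secrete interleukin 17 and guard mucosal surfaces against extracellular bacteria and fungi, and in excess they drive autoimmune inflammation. The nuclear receptor RORγt switches on their cytokine genes and binds DNA elements built around the half-site AGGTCA, which it shares with many other nuclear receptors. Digoxin is a plant steroid of the cardiac glycoside class that blocks the Na,K-ATPase, the pump that exports sodium from cells, and it is also known to bind RORγt and lower its activity.

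Levels are given on the log2 scale relative to the average wildtype DMSO array, so that 0 is that average and 1 is a 2-fold higher signal. The ± values are standard errors from limma, for n = 2 arrays in each group, and a gene was called at an adjusted p under 0.05 over 18193 genes. The SD over genes of the difference between the arrays of a group was 0.18 in wildtype DMSO and 0.24 in wildtype digoxin. The median 95% interval of a gene's digoxin effect reached 0.281 to each side, and the number of arrays limits this precision. All 7 measured markers of CD4 T cells lay at a log2 level of 8 or above before centring. Of 13 myeloid markers 1 did, H2-Ab1, and 0 of 9 B cell, 0 of 6 NK cell and 0 of 7 CD8 T cell markers. Nor did any of the gamma delta T cell, erythroid, or mast cell and basophil markers. These levels are ranges read from the precision of the values, and since probe sets differ in affinity they do not measure purity. Some probe sets split the arrays without regard to the groups. That of Actb stood at -1.94 and 1.74 on the digoxin arrays, while its other probe set stood at 0.11 and 0.05 there. The gene of RORγt was not analysed here, and it could not serve as a check of the genotypes.

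Few genes were called for digoxin in wildtype cells, and with 2 arrays a group smaller changes could be missed. Limma called 22 of 18193 genes (0.121%), of which 13 were higher (0.0715%) and 9 were lower (0.0495%), while 1272 genes had an unadjusted p under 0.05 (6.99%). The signature cytokine gene Il17a was among the lowest, the interleukin 10 gene, the NK receptor gene Klrd1 and the cytotoxic granule genes Gzmb and Nkg7 were higher, and 14 of the 22 had changed by over 2-fold, 7 in each direction. The called genes moved by at least 0.71 on the log2 scale, and on each of them the digoxin arrays lay wholly to one side of the DMSO arrays. Lack of overlap alone was common, since 3563 genes were higher (19.6%) and 3302 lower (18.1%) without overlap. With a change of over 1.5-fold as well, it was met by 47 genes in each direction (0.258%). The median absolute difference between the digoxin arrays was 0.13 for called genes and 0.14 for all genes, and the widest gap among called genes was 0.50, at Iyd. Before centring, 19 of the called genes had their lowest level between 4 and 8, 3 at 8 or above (Igfbp7, Ramp1 and Ecm1) and 0 under 4. In these cultures, fewer cells of a type and less RNA per cell cannot be told apart.

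**Figure D1:**
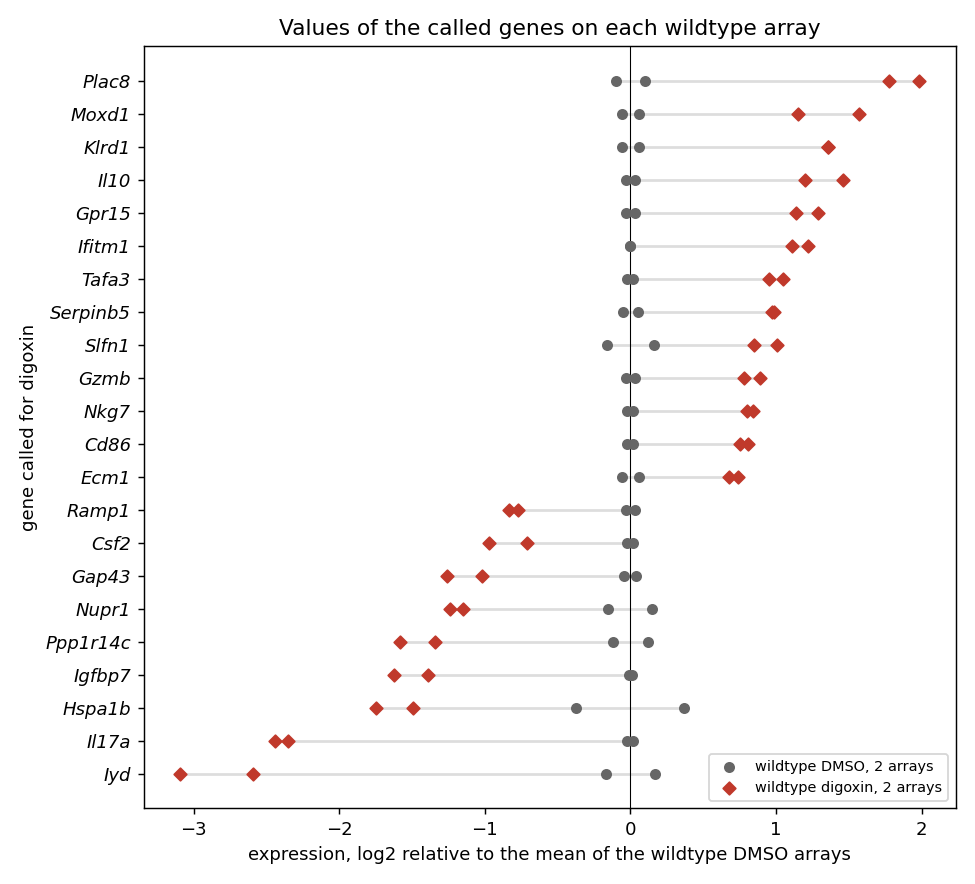
Log2 expression relative to the mean of the wildtype DMSO arrays (horizontal axis) for the 22 called genes (rows), with 1 point per array: grey circles for the 2 DMSO arrays, red diamonds for the 2 digoxin arrays, and a grey line over their range. The digoxin arrays of each gene lie on 1 side of its DMSO arrays, from -3.09 at Iyd to 1.98 at Plac8.

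Among the genes that fell, Il17a encodes interleukin 17A, the cytokine that gives Th17 cells their name. It stood at -0.02 and 0.02 on the DMSO arrays and at -2.35 and -2.44 on the digoxin arrays. The pairs were far apart and each was tight, and the fitted change was -2.39 ± 0.12 (95% interval -2.67 to -2.12; adjusted p = 6.5e-05). Iyd, the deiodinase that recovers iodide from iodotyrosines in the thyroid, stood at -0.17 and 0.17 in DMSO and at -2.59 and -3.09 in digoxin. It had the largest change of the called genes, 7.16-fold lower (adjusted p = 0.000215), although its digoxin arrays differed more from each other than those of Il17a. Ppp1r14c, which encodes an inhibitor of protein phosphatase 1, stood at -0.12 and 0.12 in DMSO and at -1.34 and -1.58 in digoxin, without overlap (-1.46 ± 0.14, adjusted p = 0.00359). Ppp1r14c and Iyd follow each other on chromosome 10, with 0 coding genes between them in the GRCm38.p6 RefSeq table.

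The 250 bases before the start sites of these genes are shown because Il17a is the signature target of RORγt and because the neighbours Ppp1r14c and Iyd fell together; Tafa3, a gene that rose, is added as the other window with the half-site. The sequences are those of RefSeq on GRCm38.p6, read 5′ to 3′ on the strand of the gene, with capitals marking TGACCT, which is AGGTCA on the opposite strand. The Il17a window is chr1:20730655-20730904 on the plus strand, with the half-site 120 to 115 bases before the start. The Iyd window is chr10:3540024-3540273 and the Ppp1r14c window chr10:3365900-3366149, on the plus strand, and the Tafa3 window is chr3:104777548-104777797 on the minus strand, with the half-site 139 to 134 bases before the start.
Il17a: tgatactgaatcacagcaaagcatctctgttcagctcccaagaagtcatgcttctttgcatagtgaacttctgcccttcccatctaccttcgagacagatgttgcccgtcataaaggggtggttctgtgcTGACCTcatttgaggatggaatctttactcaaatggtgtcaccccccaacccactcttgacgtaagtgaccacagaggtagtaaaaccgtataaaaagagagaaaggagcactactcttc
Iyd: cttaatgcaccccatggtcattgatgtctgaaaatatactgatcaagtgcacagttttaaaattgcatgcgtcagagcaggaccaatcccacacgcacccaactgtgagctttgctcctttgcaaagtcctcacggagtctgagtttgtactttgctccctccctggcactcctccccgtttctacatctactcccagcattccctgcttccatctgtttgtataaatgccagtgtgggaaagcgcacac
Ppp1r14c: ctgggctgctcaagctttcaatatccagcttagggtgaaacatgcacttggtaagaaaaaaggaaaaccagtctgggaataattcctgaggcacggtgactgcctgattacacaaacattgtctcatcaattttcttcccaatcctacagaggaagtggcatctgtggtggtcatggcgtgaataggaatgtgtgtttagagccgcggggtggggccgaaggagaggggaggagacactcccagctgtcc
Tafa3: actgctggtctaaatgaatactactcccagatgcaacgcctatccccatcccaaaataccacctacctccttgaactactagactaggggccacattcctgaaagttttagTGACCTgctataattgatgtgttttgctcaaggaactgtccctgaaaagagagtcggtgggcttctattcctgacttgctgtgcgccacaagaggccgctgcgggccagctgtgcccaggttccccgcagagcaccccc

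AGGTCA was searched on both strands of these 250 bases for the 18 called genes with an entry, Cd86, Il10, Klrd1 and Gap43 being the 4 without. It occurred in 2 of their 19 windows, those of Il17a and Tafa3. Over all 32851 windows of the table it occurred in 4607 (14.0%), and over those of tested genes in 12.5%. A match of 6 letters is a description of the window, not a bound site, and the Il17a and Tafa3 genes changed in opposite directions.

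Hspa1b encodes an inducible form of the chaperone Hsp70 and was the least even of the called genes in DMSO, at 0.37 and -0.37. On the digoxin arrays it stood at -1.49 and -1.75, still apart from DMSO (-1.62 ± 0.24, adjusted p = 0.0431). Its near-identical copy Hspa1a stood at -1.26 and -1.67 in digoxin and was not called (-1.46 ± 0.26, adjusted p = 0.102), and signal of the copies cannot be separated with certainty. The other probe sets of Hspa1b gave -1.59 and -1.47. Igfbp7, a secreted binder of insulin-like growth factors, stood at -0.01 and 0.01 in DMSO and at -1.39 and -1.62 in digoxin (-1.50 ± 0.12, adjusted p = 0.00119). Its other probe sets gave -0.24 and 0.17, so that the fall was seen by 1 of 3 probe sets, and with the mean of the probe sets the change was -0.52 and not called.

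Nupr1, a small chromatin protein induced by stress, stood at 0.15 and -0.15 in DMSO and at -1.15 and -1.24 in digoxin (-1.19 ± 0.14, adjusted p = 0.00763), and its other probe set gave -0.99. Gap43, best known from growing axons, stood at -1.02 and -1.26 in digoxin (-1.14 ± 0.13, adjusted p = 0.0064). The smallest falls among the called genes were those of a cytokine and of a receptor subunit. Csf2 encodes GM-CSF, a cytokine through which Th17 cells activate myeloid cells, and stood at -0.71 and -0.97 (-0.84 ± 0.12, adjusted p = 0.0421). Ramp1, which pairs with a receptor for the neuropeptide CGRP, stood at -0.83 and -0.77 (-0.80 ± 0.10, adjusted p = 0.0171), while its other probe sets gave -0.20 and 0.08 and the mean of all of them was not called.

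Among the genes that rose, Plac8, the gene of a small protein rich in cysteine, stood at -0.10 and 0.10 in DMSO and at 1.98 and 1.78 in digoxin. It was the highest of all called genes on each digoxin array, 3.67-fold above DMSO (1.88 ± 0.12, adjusted p = 0.000215). Il10 encodes interleukin 10, the cytokine that restrains inflammation and that Th17 cells can make themselves. It stood at 0.03 and -0.03 in DMSO and at 1.46 and 1.20 in digoxin, a 2.51-fold rise (1.33 ± 0.14, adjusted p = 0.00479). In the list of 17 measured cytokine genes, which leaves out Il17a, 1 was called higher and 1 lower, Il10 and Csf2. Il2, which encodes a growth factor of T cells, stood at -0.55 and -0.72 (-0.64 ± 0.11, adjusted p = 0.0643), and Lif, of the interleukin 6 family, at -0.16 and -0.69. The cytokine median was -0.07, against 0.01 over all genes, and it changed sign under 1 alternative setting.

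The called rises included genes better known from killer lymphocytes. Klrd1 encodes CD94, the shared subunit of NKG2 receptors, and stood at -0.06 and 0.06 in DMSO and at 1.36 on each digoxin array (adjusted p = 0.000991). Gzmb, the gene of the death-inducing protease granzyme B, stood at 0.03 and -0.03 in DMSO and at 0.89 and 0.78 in digoxin, and Nkg7, which encodes a granule membrane protein, at 0.02 and -0.02 and then at 0.84 and 0.80. In each of these genes the digoxin arrays agreed closely and lay clear of DMSO, with adjusted p = 0.0204 for Gzmb and for Nkg7. Of 12 measured NK lectin-like receptors and adaptors, Klrd1 was called, 10 were above 0, and 5 were higher at an unadjusted p under 0.05 against 0 lower, where 3.61% and 3.39% of all genes were higher and lower by that rule. Klrk1, which encodes NKG2D and lies beside Klrd1 on chromosome 6, stood at 1.28 and 0.77 (1.03 ± 0.16, adjusted p = 0.0585). Klrc1, the gene of the CD94 partner NKG2A, stood at 1.08 and 0.48 (adjusted p = 0.287), and Klre1 at 0.48 and 0.49 (adjusted p = 0.229).

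Of 16 measured cytotoxic granule genes, 15 were above 0 (53.3% of all genes), and their median was 0.13. Of the 16, 2 were called higher (0.0715% of all genes) and 4 were higher at an unadjusted p under 0.05 (3.61%). In 5 of the 16 the lowest level was under 4. Ctsw, the gene of cathepsin W, stood at 0.60 ± 0.11 (adjusted p = 0.121), Gzma at 0.39 ± 0.15, and perforin, Prf1, at -0.19 and 0.68, on opposite sides of DMSO. Of the NK cell markers, 5 of 6 were above 0, with a list median of 0.06 and -0.06 on the DMSO arrays and 0.06 and 0.27 on the digoxin arrays. Their defining receptor gene Ncr1 had its lowest level under 4, near the bottom of the scale, and stood at -0.04 and 0.24. All 7 CD8 T cell markers were above 0, with list medians of -0.06 and 0.06 in DMSO and 0.04 and 0.30 in digoxin, but Cd8a stood at 0.09 ± 0.13 and Cd8b1 at 0.03 ± 0.13. Marker medians also differed between the digoxin arrays for B cells (0.09 and 0.27) and gamma delta T cells (0.01 and 0.26). For erythroid cells (-0.14 and 0.28) and myeloid cells (-0.01 and 0.15) they had opposite signs on these arrays. The median change was 0.09 for myeloid cells (13 markers), 0.05 for erythroid cells (4) and 0.10 for mast cells and basophils (6). The myeloid and erythroid medians changed sign under 1 and 3 settings. The part of other cell types in these results was not tested.

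Gpr15, a receptor that guides T cells to the large intestine, stood at 0.03 and -0.03 in DMSO and at 1.14 and 1.29 in digoxin (1.21 ± 0.12, adjusted p = 0.00359). Ifitm1, an interferon-induced membrane protein gene, stood at 0.00 on each DMSO array and at 1.22 and 1.11 in digoxin (1.16 ± 0.11, adjusted p = 0.00359). Moxd1, which encodes a monooxygenase-like protein, stood at 1.57 and 1.15 in digoxin (1.36 ± 0.14, adjusted p = 0.00431). All 3 were above their DMSO arrays by more than 1 on the log2 scale on each digoxin array. Tafa3, the gene of a secreted chemokine-like protein, stood at 1.05 and 0.95 (adjusted p = 0.00451), and Serpinb5, the serpin known as maspin, at 0.97 and 0.99 (adjusted p = 0.00479). The other probe sets of Serpinb5 gave 1.17, 0.92 and 0.96, close to the one used. Slfn1, of the Schlafen family of T cell growth regulators, stood at 0.16 and -0.16 in DMSO and 1.01 and 0.85 in digoxin (adjusted p = 0.0364), but its other probe set gave 0.20. The costimulatory ligand gene Cd86 stood at 0.81 and 0.75 (adjusted p = 0.0204), with 0.97 from its other probe set, and Ecm1, a secreted matrix glycoprotein gene, at 0.74 and 0.68 (adjusted p = 0.0394).

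**Figure D2:**
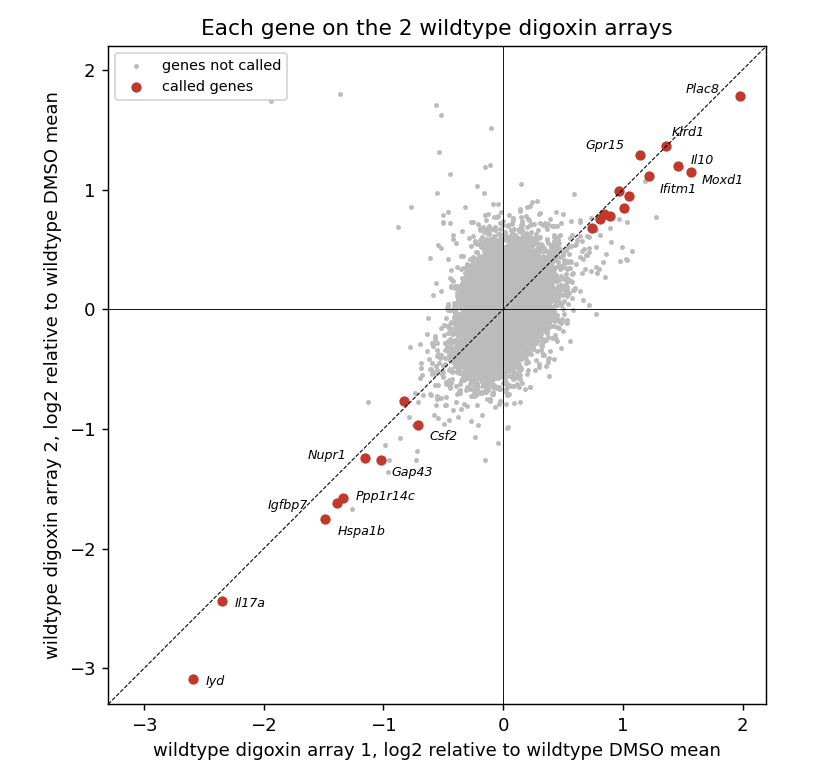
Log2 expression relative to the wildtype DMSO mean on digoxin array 1 (horizontal axis) against digoxin array 2 (vertical axis), 1 point per gene, with called genes in red and equality as a dashed line. The called genes lie along the dashed line, and a few uncalled genes at the upper left, such as Actb at -1.94 and 1.74, differ between the digoxin arrays by more than any called gene.

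A further 20 genes had an adjusted p between 0.05 and 0.10, and at the looser threshold 42 genes were called. The nearest were Gbp2, an interferon-induced GTPase gene (0.73 and 0.76; 0.75 ± 0.11, adjusted p = 0.0508), and Xdh, the gene of xanthine dehydrogenase (0.72 ± 0.11, adjusted p = 0.0537). Samd9l, an interferon-induced antiviral gene, stood at 0.79 ± 0.12 and the protease gene Furin at -1.11 ± 0.17, each at an adjusted p of 0.0538. The next were smaller or less even between arrays. Nebl, an actin-binding protein gene, stood at -1.16 ± 0.18, Prr29 at -1.06 ± 0.17, Stom, the gene of the membrane protein stomatin, at 1.13 ± 0.18 and Pcsk1, a prohormone convertase gene, at 0.69 ± 0.11. Others stood at -0.66 (Pkib, an inhibitor of protein kinase A, and Itga3, an integrin subunit), -0.69 (Nr1d2, the clock repressor REV-ERBβ), -0.74 (Avpi1) and 0.63 (Chit1, a chitinase). All of these were between 1.54-fold and 2.23-fold from DMSO, with adjusted p from 0.0508 to 0.0653.

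In the Th17 program as a whole, 12 of 15 listed cytokine, receptor and RORγt-dependent core genes were measured. Il17a was called and the median was -0.25. At an unadjusted p under 0.05, 6 members were lower and 1 higher, against 3.39% and 3.61% of all genes. Ccr6, the receptor that leads Th17 cells to inflamed tissue, stood at -0.14 and 0.14 in DMSO and at -0.74 and -0.96 in digoxin (-0.85 ± 0.16, adjusted p = 0.121), and the gene of its ligand, Ccl20, at -0.36 ± 0.14. Furin, which cleaves precursor proteins, stood at -0.96 and -1.26 in digoxin, apart from DMSO at -0.01 and 0.01. Ltb4r1, a leukotriene receptor gene, stood at -0.31 ± 0.11, Il12rb1, a subunit shared by the receptors of interleukins 12 and 23, at -0.30 ± 0.12 and Il1r1, a receptor for interleukin 1, at -0.21 ± 0.11. The highest member was Tmem176b, a membrane channel gene, at 0.27 ± 0.12, and Il21 stood at 0.06. The list's median kept its sign in every setting tried, from -0.31 to -0.18. Several other Th17 genes, Il17f, Il22 and Il23r among them, were not analysed here.

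None of the 12 measured Th17 transcription factor genes was called, at a median of -0.05 that changed sign under 1 setting. Fosl2, an AP-1 factor that restrains Th17 plasticity, was the lowest, at -0.63 ± 0.16 (adjusted p = 0.342). At an unadjusted p under 0.05, 1 of 12 was lower (3.39% of all genes). Batf (0.07), Irf4 (0.06), Stat3 (-0.06) and Rora (0.02), which act upstream of or beside RORγt, stood within 0.1 of DMSO, a distance smaller than their standard errors. Ahr, the aryl hydrocarbon receptor gene, stood at 0.26 ± 0.13. Among 12 regulators of Il10 none was called, with Maf at 0.42 and 0.01, Prdm1 at 0.01 and 0.50 and Id2 at -0.39 ± 0.12. The list's median was -0.01 and changed sign under 2 settings.

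None of the genes listed for other helper lineages was called. At an unadjusted p under 0.05, 3.61% of all genes were higher and 3.39% lower. The 10 measured Th1 genes had a median of 0.18, with 5 higher at an unadjusted p under 0.05. They were led by the chemokine receptor Cxcr3 (0.53 ± 0.11, adjusted p = 0.166), the interleukin 12 receptor chain Il12rb2 (0.55 ± 0.13) and the transcription factors Hlx (0.62 ± 0.15) and Tbx21 (0.38 and 0.31). Ifng itself stood at -0.03 (-0.15 and 0.10 on the digoxin arrays), with its lowest level under 4, where a fall could be missed. The median of 11 Th2 genes was 0.09, and 0 of them were past an unadjusted p of 0.05. Among regulatory T cell genes Foxp3 stood at 0.00, also with its lowest level under 4. The 13 measured genes of that list had a median of 0.00, which changed sign with the setting. At an unadjusted p under 0.05, 1 of them was lower, the inhibitory receptor Ctla4 (-0.26 ± 0.10), and 4 were higher, the ectonucleotidases Entpd1 (0.70 and 0.61; adjusted p = 0.135) and Nt5e (0.35 and 0.40), which turn ATP into adenosine, and the surface receptors Gpr83 (0.42 ± 0.10) and Izumo1r (0.43 ± 0.10). The 9 follicular helper genes had a median of -0.15 and their regulator Bcl6 stood at -0.38 ± 0.12.

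Other surface receptor and ligand lists held single called genes. In 15 costimulation genes Cd86 was called and the median was 0.09. At an unadjusted p under 0.05, 2 were higher and 1 lower, against 3.61% and 3.39% of all genes. Of 22 chemokine and homing receptor genes Gpr15 was called, 3 were higher and 2 lower at an unadjusted p under 0.05, and the median was 0.10. The 20 TNF superfamily genes had a median of 0.03, which changed sign under 3 settings, and none was called. Tnfrsf8, the gene of CD30, stood at -0.20 and 0.20 in DMSO and at 0.97 and 0.75 in digoxin (0.86 ± 0.18, adjusted p = 0.209), and Tnfrsf23, a decoy receptor for TRAIL, at 0.86 and 0.46 (0.66 ± 0.17). The 21 interleukin receptor genes had a median of 0.12, with 6 higher and 1 lower at an unadjusted p under 0.05 and 0 called. The 13 genes linked to encephalitogenic Th17 cells, those able to cause brain inflammation, had a median of 0.13, with Gzmb called higher and Csf2 called lower and with 4 higher and 1 lower at an unadjusted p under 0.05.

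Interferon-stimulated genes had a median of 0.11 over 20 measured members, of which 16 were above 0 (53.3% of all genes) and Ifitm1 was called. At an unadjusted p under 0.05, 5 were higher and 0 lower, against 3.61% and 3.39% of all genes. After Ifitm1 and Gbp2 came Isg20, an RNA exonuclease gene (0.40 ± 0.13), and Zbp1, which senses unusual nucleic acids (0.37 ± 0.12). Ifit1 (-0.06), Mx1 (-0.07), Oas1a (-0.02) and Usp18 (-0.14) were the 4 members below 0, Ifit1 and Mx1 with their lowest level under 4. Other type I interferon targets stood above 0, such as Ifit3 (0.15), Rsad2 (0.16), Oas2 (0.18) and Oasl1 (0.15). Of 7 Schlafen genes 3 were higher at an unadjusted p under 0.05, Slfn1, Slfn2 (0.30 ± 0.11) and Slfn8 (0.28 ± 0.12). The 12 S100 and annexin genes had a median of 0.08, with S100a4 at -0.42 ± 0.17 and S100a6 at 0.32 ± 0.14.

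Among 20 genes of T cell receptor and NF-κB signalling none was called, with a median of -0.06. At an unadjusted p under 0.05, 5 were lower and 2 higher, against 3.39% and 3.61% of all genes. Nfkb2, which encodes an NF-κB subunit, stood at 0.04 and -0.04 in DMSO and at -0.51 and -0.52 in digoxin (adjusted p = 0.202), Nfkbie at -0.41 ± 0.13, Relb at -0.37 ± 0.12, Tnfaip3 at -0.34 ± 0.11 and Nfkbia at -0.33 ± 0.13, while Rel, another subunit gene, stood at -0.05. The T cell receptor chain Cd3g stood at 0.43 ± 0.12. The immediate early list (17 members, median 0.02), TGF-β list (15, -0.07) and STAT and SOCS list (15, 0.04) had 0 called, and the medians of the immediate early and TGF-β lists changed sign under 4 and 1 settings. In these, Dusp2, a phosphatase gene, stood at 0.36 ± 0.11, Nr4a1, a nuclear receptor induced by T cell receptor signals, at -0.33 ± 0.12, and Socs3, a brake on STAT3, at 0.31 ± 0.11.

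All 18 genes of the integrated stress response were below 0, where 46.7% of all genes were. This pathway couples amino acid shortage and other stresses to the transcription factor ATF4 and its targets. Nupr1 was called, and 10 of 18 were lower at an unadjusted p under 0.05 (3.39% of all genes). The list's median was -0.28, the lowest of the 39 pathway lists. Chac1, a glutathione-degrading enzyme gene, stood at -0.69 and -0.49 (-0.59 ± 0.13, adjusted p = 0.244), Trib3, a pseudokinase gene, at -0.45 and -0.50 and Ppp1r15a, which restarts translation, at -0.53 and -0.41. Asns, the asparagine synthetase gene, stood at -0.39 ± 0.10 and Atf4 at -0.13. The list's median was -0.26 on digoxin array 1 and -0.35 on array 2, against 0.05 and -0.05 in DMSO. The related list of 13 amino acid and sodium-coupled transporters had a median of -0.15, with the ATF4-linked transporters Slc1a4 (-0.38 ± 0.12), Slc7a5 (-0.35 ± 0.11) and Slc3a2 (-0.30 ± 0.10) lower at an unadjusted p under 0.05. The median was -0.09 for 18 ER chaperone genes, of which 0 were called, and -0.15 for 12 cytosolic heat shock genes, of which Hspa1b was called.

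Genes of the pump that digoxin blocks, the Na,K-ATPase, and of related ion transport were measured for 14 of 18 listed members. None was called, 1 was higher at an unadjusted p under 0.05 (3.61% of all genes), and the median of 0.01 changed sign under 3 settings. Slc8a1, the sodium-calcium exchanger gene, stood at 0.08 and -0.08 in DMSO and at 0.32 and 0.55 in digoxin (0.43 ± 0.18, adjusted p = 0.692), with its lowest level under 4. The other 4 listed members were not analysed here, so the count does not cover the whole pump. The measured members held only Atp1a4 of the alpha subunit genes, which had its lowest level under 4 and stood at -0.13. The pump's beta subunits Atp1b1 (0.17), Atp1b2 (0.21) and Atp1b3 (-0.03) were not called. The 8 salt and osmotic response genes had a median of 0.02, which changed sign under 3 settings, with 0 past an unadjusted p of 0.05.

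Of 19 mitosis genes, 18 were below 0, as were 46.7% of all genes. At an unadjusted p under 0.05, 5 were lower, against 3.39% of all genes. The list had a median of -0.23 and 0 called. Cenpe, a kinetochore motor gene, stood at -0.39 and -0.48 (-0.44 ± 0.11, adjusted p = 0.315), Mki67, the gene of Ki-67, at -0.27 and -0.59 and Cdc20, an activator of the anaphase-promoting complex, at -0.31 on each digoxin array. The list's median differed between arrays, at -0.10 and 0.10 in DMSO and at -0.14 and -0.31 in digoxin. The 21 DNA replication genes, by contrast, had a median of -0.02, which changed sign under 2 settings, and 0 past an unadjusted p of 0.05. The 14 p53 targets had a median of -0.09 with 0 called. Among 15 apoptosis regulators, at a median of -0.09 that changed sign under 1 setting, Bcl2l11, the gene of the death inducer BIM, stood at 0.57 and 0.74 (0.65 ± 0.11, adjusted p = 0.0883).

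The 17 clock genes had a median of -0.09. At an unadjusted p under 0.05, 3.61% of all genes were higher and 3.39% lower, and of the clock genes 0 were higher and 4 lower. These were Nr1d2 (-0.67 and -0.71), Cry1 (-0.35 and -0.83), Per1 (-0.34 and -0.54) and Nr1d1 (-0.31 and -0.45). Other members of the list that encode clock repressors did not pass. Cry2 stood at 0.10, Per2 at 0.02, Per3 at 0.26 and Ciart at 0.01, Per2 and Per3 with their lowest level under 4. Below 0 were Nfil3 (-0.13), Bhlhe40 (-0.09) and Bhlhe41 (-0.03). In the list of 21 nuclear receptor genes, which also holds Nr1d1 and Nr1d2, 5 were lower at that threshold and the median was -0.07, among them the vitamin D receptor gene Vdr (-0.48 ± 0.13, adjusted p = 0.395). The 11 genes of naive and resting T cells had a median of 0.08, with 8 above 0 and 3 below, Txk being the lowest at -0.15. Igfbp4, an insulin-like growth factor binder, stood at 0.53 ± 0.11 (adjusted p = 0.189), Klf2 at 0.31 and Il7r at 0.34. Metabolic and growth lists stayed close to all genes. Their medians were 0.05 for glycolysis and hypoxia (19 members), 0.01 for sterol and fatty acid synthesis (19), -0.03 for ribosome biogenesis (18) and -0.08 for translation factors (12), with 0 called in each. The sterol and ribosome medians changed sign under 3 and 2 settings.

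**Figure D3:**
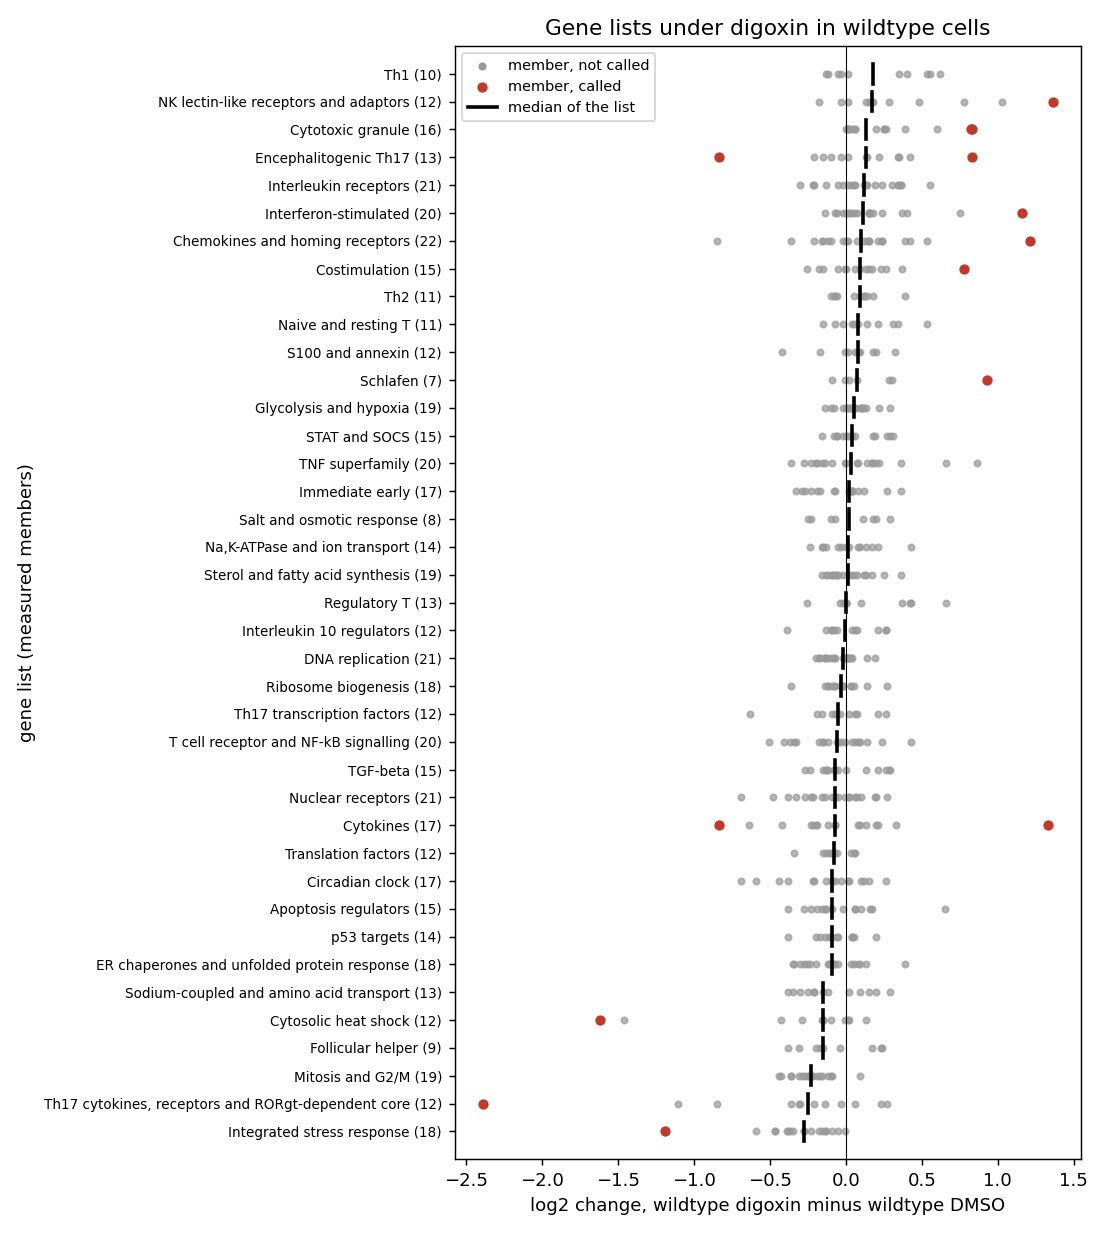
Log2 change of wildtype digoxin minus wildtype DMSO (horizontal axis) for each measured member of the 39 pathway lists (rows, with the number of measured members in brackets): grey points are uncalled members, red points called ones and black bars the list medians. Medians run from -0.28 in the integrated stress response to 0.18 in the Th1 list, and most lists hold 0 or 1 called gene.

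The response of wildtype cells was set beside that of RORγt-deficient cells, measured on 4 other arrays, to show where the responses differed. Limma called 1 gene for digoxin there (0.0055%), Il17a, and 639 genes had an unadjusted p under 0.05 (3.51%). Only 11 genes changed there by over 1.5-fold (0.0605%), 2 of them higher (0.011%) and 9 lower (0.0495%), against 98 in wildtype cells (0.539%). Il17a stood at -2.01 and -2.21 in deficient cells in DMSO and at -3.87 and -4.12 in digoxin, so that digoxin lowered it from an already low level, by -1.88 ± 0.12 (adjusted p = 0.000634). Iyd, at -3.29 and -3.64 in deficient cells in DMSO, stood at -3.80 and -3.83 in digoxin (-0.35 ± 0.19). Il10, higher than wildtype DMSO in deficient cells at 1.63 and 1.26 before digoxin, stood at 1.46 and 1.41 with it, a change of -0.01. Plac8 stood at 1.89 and 1.76 without and 2.30 and 2.36 with digoxin.

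Of the 22 genes called in wildtype cells, 21 had the same direction in deficient cells, Il10 being the exception, where 59.2% of all genes had the same direction. Their median absolute change was 1.18 in wildtype cells and, in the wildtype direction, 0.26 in deficient cells. The genes were chosen by their wildtype change, so this pair of medians is a description without a test. Gap43 (-1.14 and -0.87) and Il17a (-2.39 and -1.88) had the most similar changes in the genotypes relative to their size. Over 18193 genes, which are not independent replicates, the digoxin effects in the genotypes correlated at 0.28, and at 0.26 without the called genes. Of the 98 genes past 1.5-fold in wildtype cells, 86 had the same direction in deficient cells and 4 were past 1.5-fold there too, Gap43, Igfbp7, Il17a and Pacc1.

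The difference between the digoxin effects was itself tested, and limma called 0 genes (0.0%), while 562 had an unadjusted p under 0.05 (3.09%). The nearest was Iyd, whose effect was lower by -2.49 in wildtype cells (95% interval -3.08 to -1.91, adjusted p = 0.0521), and array weights and 5 other settings took it past the threshold. The next were Plac8 (1.37, interval 0.99 to 1.76, adjusted p = 0.116), Klrd1 (1.13, 0.79 to 1.47, adjusted p = 0.15) and Il10 (1.34, adjusted p = 0.221). Receptor loss in DMSO had already moved Iyd by -3.47, Plac8 by 1.82, Klrd1 by 1.38 and Il10 by 1.45. In these genes a need for the receptor and little room left to change cannot be told apart, and neither was tested. For Il17a the difference was -0.51 (interval -0.90 to -0.12), at an adjusted p of 1. At the level of lists, the integrated stress response had a median of -0.28 in wildtype and 0.00 in deficient cells, and 5 of its 18 members differed between the genotypes at an unadjusted p under 0.05. Mitosis genes had medians of -0.23 and 0.01, Th17 core genes of -0.25 and -0.11, and cytotoxic granule genes of 0.13 and 0.14.

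**Figure D4:**
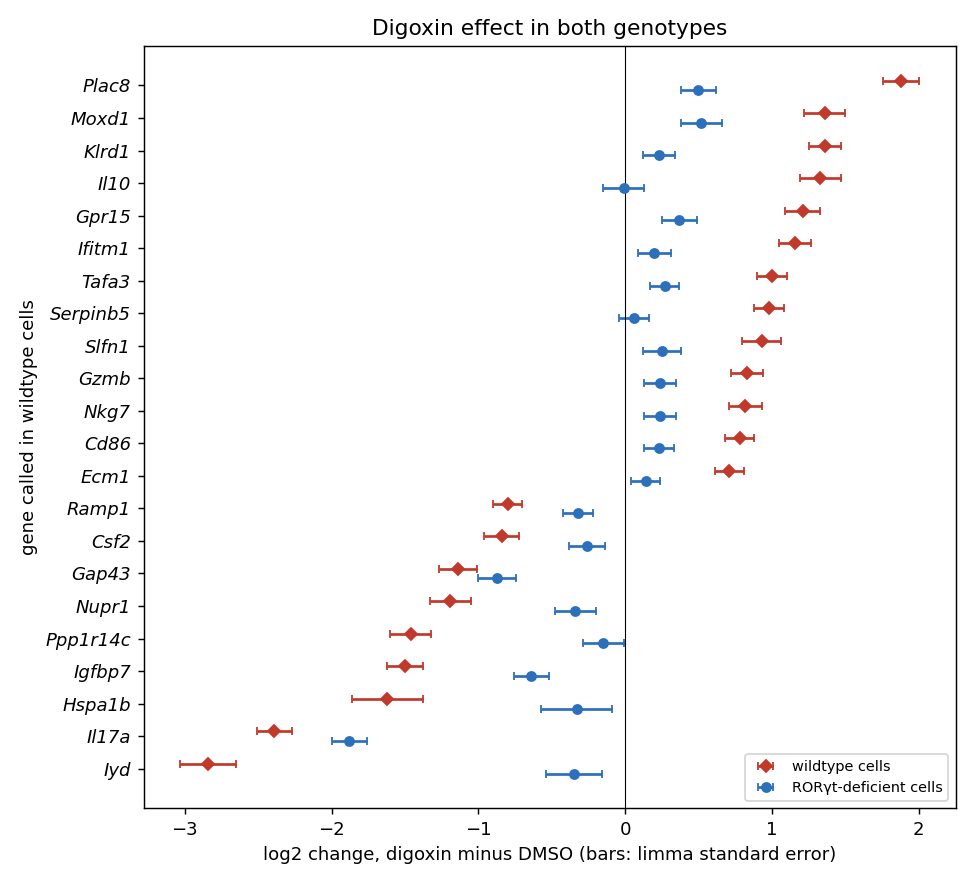
Log2 change of digoxin minus DMSO (horizontal axis) for the 22 genes called in wildtype cells (rows), in wildtype cells (red diamonds) and RORγt-deficient cells (blue circles), with limma standard errors as bars. Gap43 (-1.14 and -0.87) and Il17a (-2.39 and -1.88) have the closest pairs relative to their size among the falls, whereas Il10 stood at 1.33 in wildtype and -0.01 in deficient cells.

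Loss of RORγt in DMSO gives a scale for the size of the digoxin effects. That comparison uses the same wildtype DMSO arrays, so chance deviations of these arrays enter its values too, and the values are only set side by side. Il17a was at -2.39 with digoxin and at -2.11 with receptor loss, Iyd at -2.84 and -3.47, and Ppp1r14c at -1.46 and -2.09. Among the rises, Plac8 was at 1.88 and 1.82, Klrd1 at 1.36 and 1.38, Il10 at 1.33 and 1.45, and Cd86 at 0.78 and 0.76. Digoxin gave the higher value for Serpinb5 (0.98 against 0.34), Moxd1 (1.36 and 0.75), Tafa3 (1.00 and 0.52) and Gpr15 (1.21 and 0.73). It gave the lower value for Slfn1 (0.93 against 1.75) and Nkg7 (0.82 and 1.29). These contrasts between the drug and receptor loss were not tested.

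The count of called genes depended on single arrays. Leaving out the first or second wildtype DMSO array gave 6 and 7 calls, and leaving out the second wildtype digoxin array gave 12. Iyd, Il17a, Igfbp7, Klrd1 and Plac8 kept their call whichever array was left out, and the other 17, among them Il10, Csf2, Gzmb and Gpr15, were lost in at least 1 of these fits, although 0 of the 22 changed sign in any setting.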

How the data were processed

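Total RNA was labelled and hybridised by the Affymetrix protocols, per the labels. The authors deposited log2 values of 45101 probe sets, summarised with RMA per the submitters' processing notes; the series' design text names GeneSpring GX 11.5. For every probe set, the 2 wildtype DMSO values sum to 0 within 1e-06, a centring that no label records, so no absolute level is left; a range for it was read from the binary precision of the values. That the base is 2 rests on RMA. The genome build is not given in the labels or file headers.

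After 64 control probe sets were left out, 34945 probe sets with 1 gene symbol gave 18193 genes (34741 matched the GRCm38.p6 RefSeq table). Of 9010 genes with several, 1 probe set was taken by suffix order (_at, _a_at, _s_at, _x_at), the fallback where levels are missing. The 932 probe sets with several symbols and the 9211 without any entered only a count. Limma 3.58.1 in R 4.3.3 fitted 4 group means to 8 arrays (4 residual and 5.8 prior degrees of freedom), with two-sided tests and Benjamini-Hochberg adjustment over all genes. On simulated data for this comparison over 18193 genes it recovered 38.8% of log2 changes of 0.5 and 100% of those of 1, with 10 unchanged genes called. The simulated noise was independent between arrays, without the deviations that real arrays can share. On the real arrays 9 genes were higher and 11 lower by over 2-fold, of which 7 in each direction were called.

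Named genes were all called genes, the next 15 by adjusted p without overlap, up to 4 members of each of 47 gene lists by smallest p, and 11 T helper genes; a few more list members were named after their values were seen. The comparison and the lists were chosen with earlier results of these data known, so list counts are descriptions.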

Additional observations from a re-analysis of the deposited data

Results flagged for a closer look

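Outside the genes tested above, 5 of 10092 probe sets that carry no gene symbol or several were called for digoxin in wildtype cells when all 45037 probe sets were tested with limma. Of these, 3 were higher, by at least 1.06 on the log2 scale and up to 1.67, and 2 were lower, at -1.18 and -2.15. They are not named here, and their changes lie within the range of those of the called genes.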

How the results depend on the processing

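The 22 calls for digoxin in wildtype cells became 35 with array weights, 40 with the mean of a gene's probe sets, 36 with a variance prior by level range, 42 at an adjusted p under 0.10, 9 with only the 4 wildtype arrays in the fit and 6 (2 higher, 4 lower) after quantile normalisation, and ranged from 6 to 16 without single arrays of the comparison. Medians centred, a robust prior, leaving out the lowest levels and testing every probe set gave 22, 22, 25 (Hspa1b lost) and 28. The last are probe sets, 5 of them outside the tested genes, and the probe sets used for Csf2, Ecm1, Slfn1 and Hspa1b lost their call there (adjusted p from 0.0588 to 0.0652). Quantile normalisation kept Iyd, Il17a, Igfbp7, Gap43, Klrd1 and Plac8, and Iyd, Il17a, Klrd1 and Plac8 were called in every setting. It was applied to values already centred on the wildtype DMSO mean. The gene-to-gene SD of these centred values was 0.09 for either wildtype DMSO array, against 0.17 to 0.28 for the rest. Making the distributions equal widens the DMSO deviations, so quantile normalisation cannot decide whether a call holds. The difference between the genotypes went from 0 calls to 1, Iyd, with array weights, the mean of probe sets, quantile normalisation or the level prior, and ranged from 0 to 1 without single arrays (1 without wildtype digoxin array 1). Deviations of same-numbered arrays correlated at 0.45, 0.32 and 0.34 between groups other than wildtype DMSO. With the wildtype DMSO arrays they correlated at -0.24, -0.19 and -0.14. The numbers were not taken as pairs, and the cause of this pattern was not tested. A replicate block gave 25 calls, without Csf2 and Ecm1, and 0 for the difference. A crossed replicate block, chosen after seeing the data, exchanged the numbers of the wildtype DMSO arrays and gave 60 and 2. Of 47 list medians, 33 moved by more than their replicate spread in at least 1 setting. With 2 arrays a group, 38.8% of simulated log2 changes of 0.5 were recovered. Where an array was left out, the lone array was assumed to vary like the other groups. The causes of these shifts were not tested, except that fits with fewer arrays have fewer degrees of freedom.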

Other observations

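Some genes that respond to loss of RORγt in DMSO stood apart from their digoxin values, on comparisons that share the wildtype DMSO arrays. S100a4, a calcium-binding protein gene, was at -0.63 and -0.20 on the digoxin arrays (-0.42 ± 0.17) and at 1.25 with receptor loss, and S100a6 at 0.51 and 0.12 (0.32 ± 0.14) and 1.58. The mitosis genes Mki67 and Cenpe were at -0.43 and -0.44 with digoxin and at -1.11 and -1.15 with receptor loss. In the p53 list Zmat3 was at -0.17 with digoxin and 0.52 with receptor loss, and Bbc3, the gene of the death inducer PUMA, at -0.38 and 0.31. None of these was called for digoxin, and the contrasts were not tested.

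The tubulin gene Tubb5 resembled Actb in splitting arrays within groups. The probe set used stood at -1.37 and 1.80 on the wildtype digoxin arrays, at -0.09 and 1.75 in RORγt-deficient DMSO and at -0.46 and 1.74 in RORγt-deficient digoxin. Its other probe set stood at -0.23 and -0.04, at -0.31 and -0.17, and at -0.32 and -0.29 on the same arrays.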
